A study of Homo sapiens with 4 samples.

Results

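In asynchronous MDA-MB-435 cells, an established human melanoma line, 953 CTCF peaks were both weak and placed at the end of a single protein-coding gene, out of 42462 peaks in the deposited list (41313 on chromosomes 1 to 22). Members were selected on the peak caller's score, which had to be 21 or lower (scores step by 0.5), and on position: the centre lay within 1 kb of an annotated end of exactly 1 protein-coding gene (hg38). Because the score chose them, every tag-based value of theirs below is a description, and it supports nothing. The series held 4 chromatin immunoprecipitation and sequencing (ChIP-seq) samples in 2 groups. Mitotic cells, 2 replicates, had been held in thymidine (2 mM, 24 h), released for 3 h, arrested in nocodazole (100 ng/mL, 16 h) and shaken off, and were precipitated with a custom antibody against pT431 CTCF. Asynchronous cells, 2 replicates, have no treatment in the labels and were precipitated with a rabbit antibody against CTCF. The results come from asynchronous replicate 1 alone, with the remaining 3 samples not analysed here, so no value has a replicate. Its sequencing depth was 19210460 tags, and the caller put 11.66% of them in peaks. A peak list holds no expression values, so the label of the cell line was not checked against marker genes.

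CTCF is a zinc finger protein that stops cohesin as it extrudes chromatin loops and so marks many loop anchors and insulators. It reads a long DNA motif with a well conserved core, and strong sites usually carry that core close to the peak summit. Many human promoters are rich in GC and in CpG dinucleotides, and transcription runs from the start of a gene to its finish.

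The weak peaks lay mostly at gene starts, with more centres inside the gene than before it. Side is taken from a gene's outermost annotated ends, so a centre before an inner start counts as inside. Strand was known for 766 members, and 685 of them (89.4%, Clopper-Pearson 95% interval 87.0 to 91.5) were nearest the end where transcription starts, against 2160 of 2782 stronger peaks at a single gene's end (77.6%, 76.05 to 79.2). The stronger peaks, 3470 in all, met the same position rule with a higher score. Of the weak peaks at a start, 432 (63.1%, 59.3 to 66.7) had their centre inside the gene, against 840 of the stronger ones (38.9%, 36.8 to 41.0). Neither pair of intervals overlapped. These traits were shared with the 186 weak peaks at the ends of more than 1 gene, of which 144 of 158 with known strand were at a start (91.1%, 85.6 to 95.1). Of those, 118 lay inside the nearest gene (81.9%, 74.7 to 87.9), a higher share than in the members, with separate intervals. With 1 library there is no test of these differences, and intervals cover counting error only.

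Promoter sequences show what some of the weak peaks at starts sat on. The centre fell within the promoter sequence for 203 of them and outside it for 482. Sequences were taken from RefSeq (GRCh38.p14, the hg38 assembly with patches). They run 5′ to 3′ on the gene's own strand from 250 bases before a start to 50 bases after it. Capitals mark the core of the CTCF motif, searched on either strand as CC, any 3 bases, AG, any 2 bases and GGC. The first 4 are the members whose core lay closest to the peak centre, each within 6.5 bp of it. ERFL encodes an ETS-family repressor-like protein (chr19:41928400-41928699, minus strand), and EPN2 the endocytic adaptor epsin 2 (chr17:19237116-19237415, plus strand). MLLT10 encodes a partner of the histone methyltransferase DOT1L (chr10:21533506-21533805, plus strand), and RBM25 a splicing regulator (chr14:73058284-73058583, plus strand).
ERFL: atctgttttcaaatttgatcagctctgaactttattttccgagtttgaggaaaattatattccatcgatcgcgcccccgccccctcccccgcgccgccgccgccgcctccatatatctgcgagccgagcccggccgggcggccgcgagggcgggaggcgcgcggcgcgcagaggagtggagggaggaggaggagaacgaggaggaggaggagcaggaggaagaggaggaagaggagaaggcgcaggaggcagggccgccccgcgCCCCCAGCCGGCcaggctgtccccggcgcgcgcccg
EPN2: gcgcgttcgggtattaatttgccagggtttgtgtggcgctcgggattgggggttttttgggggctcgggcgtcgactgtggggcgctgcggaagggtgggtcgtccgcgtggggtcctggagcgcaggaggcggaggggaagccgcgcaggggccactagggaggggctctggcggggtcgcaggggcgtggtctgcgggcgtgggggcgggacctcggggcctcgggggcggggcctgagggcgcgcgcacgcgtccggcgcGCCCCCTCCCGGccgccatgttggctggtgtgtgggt
MLLT10: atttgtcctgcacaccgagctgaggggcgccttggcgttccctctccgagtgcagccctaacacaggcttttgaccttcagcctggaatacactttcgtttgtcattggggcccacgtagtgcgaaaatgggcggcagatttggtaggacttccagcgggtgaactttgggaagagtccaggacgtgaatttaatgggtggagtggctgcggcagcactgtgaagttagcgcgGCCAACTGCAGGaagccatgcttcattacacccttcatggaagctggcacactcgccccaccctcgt
RBM25: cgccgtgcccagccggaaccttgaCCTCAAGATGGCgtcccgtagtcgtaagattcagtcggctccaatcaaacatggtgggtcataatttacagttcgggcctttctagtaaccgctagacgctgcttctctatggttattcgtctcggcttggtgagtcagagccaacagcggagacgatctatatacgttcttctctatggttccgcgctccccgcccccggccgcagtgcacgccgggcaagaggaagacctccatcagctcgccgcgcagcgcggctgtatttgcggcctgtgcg

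Peak heights below are in normalised tags, scaled to a depth of 10000000, and carry exact Poisson 95% intervals. The ERFL peak held 9.11 normalised tags (5.55 to 14.8), the EPN2 peak 9.11 (5.55 to 14.8), the MLLT10 peak 8.33 (4.76 to 13.5) and the RBM25 peak 10.7 (6.77 to 16.7). These heights lay within the members' range, with the core at or near the centre. The RBM25 peak was centred 227 bp before the start. In ERFL and EPN2 the centres lay 21 and 16 bp inside the gene, and in MLLT10 the centre lay 15 bp before the start.

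The next 3 promoters hold no such core, and their peak centres lay closest to the start of the members without one. ADGRL2 encodes the adhesion receptor latrophilin 2 (chr1:81305882-81306181, plus strand), CHAC2 an enzyme that breaks down glutathione (chr2:53767554-53767853, plus strand) and SPECC1L a protein of the cytoskeleton (chr22:24270581-24270880, plus strand).
ADGRL2: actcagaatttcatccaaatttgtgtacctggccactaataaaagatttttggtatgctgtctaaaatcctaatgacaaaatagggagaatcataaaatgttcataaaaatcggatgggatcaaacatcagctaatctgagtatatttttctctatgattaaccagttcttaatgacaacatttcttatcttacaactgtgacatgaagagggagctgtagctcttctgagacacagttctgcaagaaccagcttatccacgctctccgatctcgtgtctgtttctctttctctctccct
CHAC2: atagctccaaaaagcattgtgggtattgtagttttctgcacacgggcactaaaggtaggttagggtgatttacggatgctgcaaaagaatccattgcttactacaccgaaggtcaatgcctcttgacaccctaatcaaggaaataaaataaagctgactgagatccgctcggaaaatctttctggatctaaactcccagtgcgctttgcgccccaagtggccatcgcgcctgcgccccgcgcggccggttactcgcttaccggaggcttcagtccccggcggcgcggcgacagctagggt
SPECC1L: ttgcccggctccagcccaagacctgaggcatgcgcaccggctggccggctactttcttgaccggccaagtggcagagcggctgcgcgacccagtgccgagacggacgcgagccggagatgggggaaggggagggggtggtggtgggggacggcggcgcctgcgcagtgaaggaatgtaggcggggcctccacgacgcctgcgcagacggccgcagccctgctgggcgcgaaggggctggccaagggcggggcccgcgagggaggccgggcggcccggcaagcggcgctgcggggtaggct

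Peak centres lay 2 bp inside the RefSeq start of the printed promoter at ADGRL2, 2 bp at CHAC2 and 4 bp at SPECC1L. The outermost annotated end of CHAC2, which the position rule uses, lay 23 bp from the centre. The ADGRL2 peak held 9.11 normalised tags (5.55 to 14.8), the CHAC2 peak 7.55 (4.37 to 12.9) and the SPECC1L peak 10.4 (6.36 to 16.1). GC content was 37.3% in the ADGRL2 promoter, 53.0% in that of CHAC2 and 74.7% in that of SPECC1L. The score rule confines the heights of all 7 peaks, so they are not compared. The absence of these letters from a window says nothing about whether CTCF bound there.

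Around the start, weak peaks fell more often inside the gene and stronger peaks more often before it. In the first 250 bp inside the gene lay 213 of 685 weak peaks (31.1%, 27.6 to 34.7), against 298 of 2160 stronger ones (13.8%, 12.4 to 15.3). In the 250 bp before the start lay 141 weak peaks (20.6%, 17.6 to 23.8), against 789 stronger ones (36.5%, 34.5 to 38.6). Further inside, from 250 to 500 bp, lay 16.2% of weak peaks (13.5 to 19.2), against 9.77% of stronger ones (8.55 to 11.1). More than 750 bp before the start, the shares were 2.63% of weak peaks (1.56 to 4.12) and 6.02% of stronger ones (5.05 to 7.11). Each of these 4 pairs of intervals was separate. The plot of peak centres around gene starts shows both shapes.

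**Figure D1:**
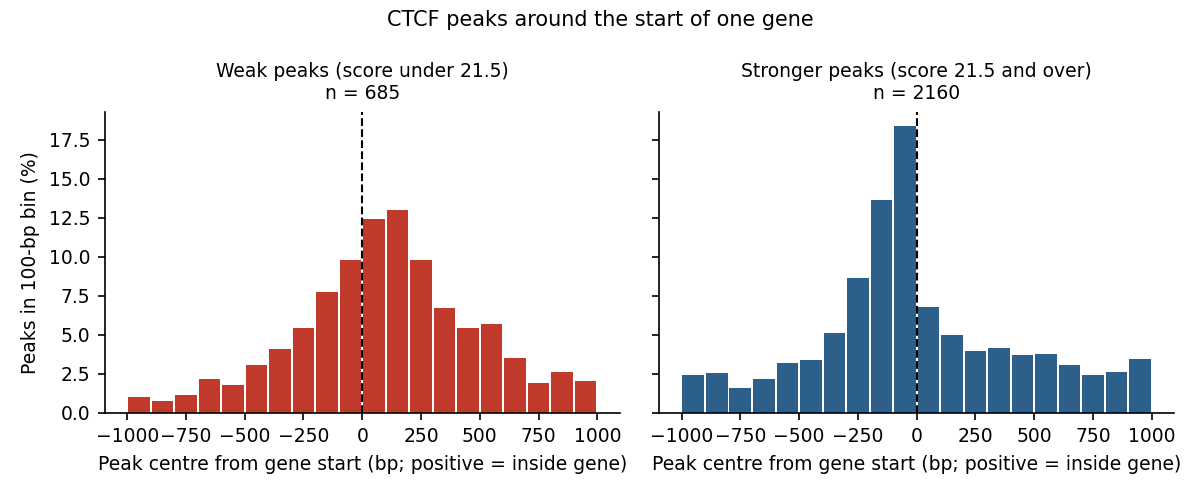
Share of peaks (vertical axis, %) whose centre falls in each 100-bp bin around the gene's outermost annotated start. The horizontal axis is in bp, positive inside the gene. The 685 weak peaks are on the left and the 2160 stronger peaks on the right. The weak peaks are highest just inside the gene and the stronger ones just before the start; 63.1% of the weak and 38.9% of the stronger peaks lie inside the gene.

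Distance to the nearest end, whichever it was, differed less. A member's centre lay a median of 250 bp from the end (median interval 234 to 274), against 301 bp for stronger peaks (285 to 317). Within 250 bp lay 477 of 953 members (50.1%, 46.8 to 53.3), against 1531 of 3470 stronger peaks (44.1%, 42.5 to 45.8). By the outermost annotated end, the closest 5 were ADGRL2, CALM3, which encodes the calcium sensor calmodulin, CBFB, a partner of the RUNX transcription factors, SPECC1L, and THNSL1, a threonine synthase-like gene. Their centres lay 2, 2, 3, 4 and 4 bp from the end. The THNSL1 peak, of 8.07 normalised tags (4.76 to 13.5), lay at the finish of the gene, and for CBFB the strand was not known. The CALM3 peak held 7.81 normalised tags (4.37 to 12.9) and the CBFB peak 9.89 (5.95 to 15.4).

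The 81 members at the finish of a gene were shaped differently from those at a start, a difference that stronger peaks shared. The focus ratio, which is higher where tags of each strand fall on their proper flank of the centre, had a median of 0.767 at finishes (0.744 to 0.775) and 0.688 at starts (0.679 to 0.694). Fold over the surrounding 10 kb had a median of 6.55 at finishes (6.04 to 6.87) and 5.39 at starts (5.27 to 5.47). Local background, computed as normalised tags divided by that fold, had a median of 1.35 at finishes (1.28 to 1.45) and 1.64 at starts (1.62 to 1.68). Peak height, which the score rule confines, had a median of 8.85 normalised tags in both places. At like heights, this background restates the fold. Finish peaks were also split evenly across the gene border, with 39 of 81 inside the gene (48.1%, 36.9 to 59.5). Among starts, centres inside and outside the gene had like focus ratios, at 0.685 (0.679 to 0.696) and 0.689 (0.674 to 0.706). Stronger peaks also had a higher median focus ratio at finishes, 0.869 (0.865 to 0.872), than at starts, 0.831 (0.827 to 0.835). Their median fold was 17.5 at finishes (16.1 to 18.5) and 14.7 at starts (13.83 to 15.75). Of the stronger peaks at a finish, 282 of 622 lay inside the gene (45.3%, 41.4 to 49.3).

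Weak peaks away from any gene end were better focused than the members. There were 6974 weak peaks with no protein-coding gene end within 1 kb. The median height, which the score rule confines in both, was 8.85 normalised tags in the members and 8.85 in the weak peaks away from ends. The median focus ratio was 0.694 in the members (0.689 to 0.70), against 0.780 away from ends (0.778 to 0.784). A focus ratio under 0.7 was found in 498 of 953 members (52.3%, 49.03 to 55.5), against 846 of 6974 (12.1%, 11.4 to 12.9). The fold over the surrounding 10 kb was 5.46 in the members (5.38 to 5.53), against 7.13 away from ends (7.06 to 7.20), and local background was 1.61 (1.59 to 1.64), against 1.24 (1.23 to 1.26). Weak peaks at the ends of more than 1 gene, 186 in all, resembled the members, with a median focus ratio of 0.686 (0.674 to 0.698) and fold of 5.23 (5.07 to 5.39). Local background is computed from height and fold, so at like heights it restates the difference in fold. Its part in the focus ratio was not tested.

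**Figure D2:**
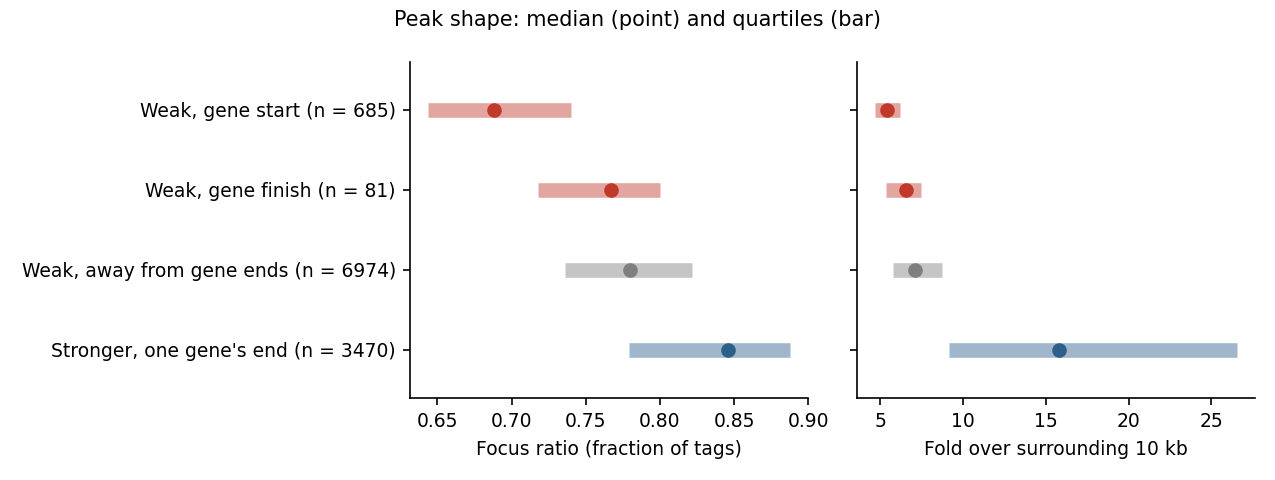
Median (point) and quartiles (bar) of the focus ratio (left, fraction of tags) and of the fold over the surrounding 10 kb (right), for weak peaks at gene starts and finishes, weak peaks away from gene ends and stronger peaks at a single gene's end. Among the classes shown, weak peaks at starts have the lowest focus ratio (median 0.688) and fold (median 5.39). Weak peaks at the ends of more than 1 gene, not shown, have medians of 0.686 and 5.23. The score chose weak and stronger peaks, so their contrast is a description only.

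All members stood close to the floor of detection. The caller's threshold was 15 tags, and 15 was also the lowest score in the list. The tag count given for a peak can be lower than its score, and how the caller derives each is not stated in the header. The caller also required a 4-fold excess over the surrounding 10 kb, and no filter was added to the caller's own. Members held 13 to 21 tags by the deposited count, or 6.77 to 10.9 normalised tags, and the median member held 17 tags, or 8.85 normalised tags with an interval of 5.16 to 14.2. The median stronger peak at a single gene's end held 62 tags, or 32.3 normalised tags (24.7 to 41.4). Just inside the score threshold, all with a score of 21, were ADAM19, a metalloprotease gene, with 10.7 normalised tags (6.77 to 16.7), AGTRAP with 10.4 (6.36 to 16.1) and ANXA2R with 10.7 (6.77 to 16.7). Just outside it, at the next score step, were ABCC10, ALDH3A2 and BAIAP2, with 11.2 normalised tags each (7.18 to 17.3). The intervals on both sides of the threshold overlap, so a peak's side of it is uncertain at this depth.

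The required 4-fold excess also bounds the background that a weak peak can have. Local background among members ran from 0.282 to 2.58, and that bound makes it not comparable with the background of stronger peaks. The 5 highest values were at ANXA2R, LAMB3, IGF2BP1, TMEFF2 and PCDHGA6. LAMB3 encodes a laminin chain of basement membranes, IGF2BP1 an RNA-binding protein and PCDHGA6 a clustered protocadherin. Their peaks stood 4.15-, 4.05-, 4.28-, 4.28- and 4.37-fold over the surrounding 10 kb, close to the limit. Each of the 5 had a higher-scoring peak within 6000 bp, and the part of that in the background was not tested.

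With heights confined by the score rule, the members with the highest fold lie on low background by construction. The 5 highest are given here. SCGB1C2, a secretoglobin gene, and SPDYE21, of the Speedy family of cell cycle regulators, stood 27.65-fold over the surrounding 10 kb, on backgrounds of 0.320 and 0.282. CCZ1, which acts in vesicle fusion with lysosomes, stood 19.6-fold on 0.520. PKHD1, the gene of recessive polycystic kidney disease, stood 13.8-fold, and NUTM2E 13.6-fold. SCGB1C2, SPDYE21, CCZ1 and NUTM2E have near-identical copies elsewhere in the genome, so reads there may be split or dropped, and their values are uncertain. The part of that in the low background was not tested. The PKHD1 peak held 10.7 normalised tags (6.77 to 16.7), 223 bp before the start.

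Across all 4423 peaks at a single gene's end, the share of start peaks inside the gene was lower at high scores, while the share at a start was lowest at middle scores. Among start peaks, the share inside the gene was 63.7% (57.6 to 69.6) at scores of 15 to under 17, 65.7% (58.7 to 72.2) at 17 to under 19 and 59.9% (53.1 to 66.4) at 19 to 21. It was 57.5% (52.8 to 62.1) above 21 and under 30, 50.7% (46.2 to 55.2) at 30 to under 50 and 35.1% (30.3 to 40.2) at 50 to under 80. It ended at 26.1% (21.6 to 30.9) at 80 to under 120 and 21.9% (18.3 to 25.9) at 120 and over. The intervals of the 3 steps below the threshold overlap with that of the first step above it. The share at a start was 89.7%, 89.7% and 88.8% in the 3 weak steps, 69.2% (65.2 to 73.1) at 50 to under 80 and 83.0% (79.7 to 86.0) at 120 and over. Peaks with scores up to 21 and those of 120 and over thus both sat mainly at starts, the former more often inside the gene and the latter more often before it.

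**Figure D3:**
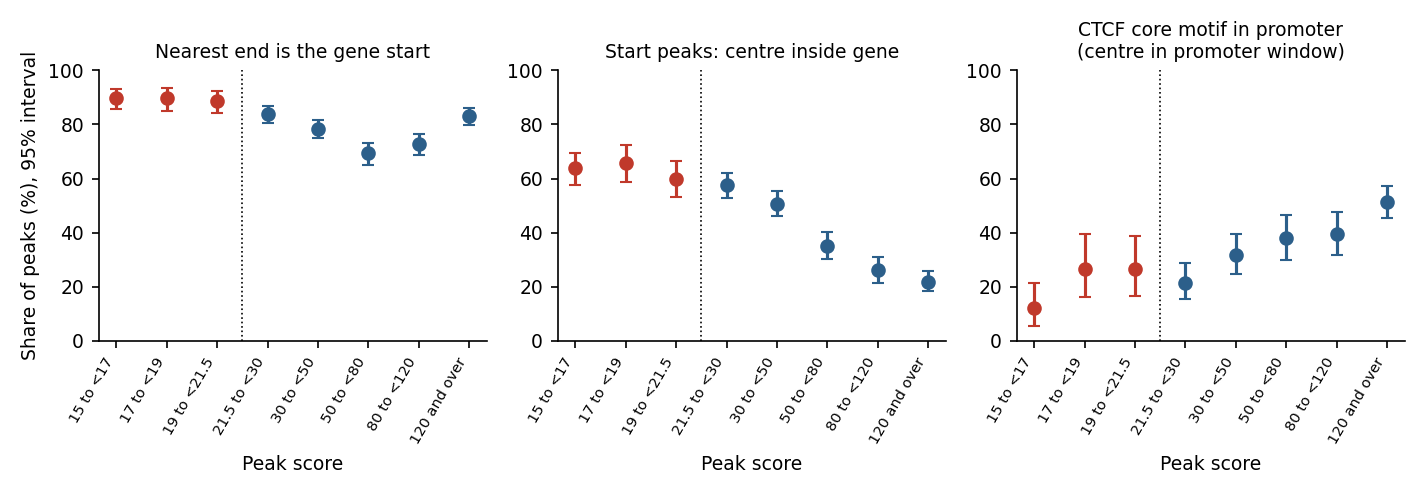
Shares (%, with Clopper-Pearson 95% intervals) by peak score for all 4423 peaks at a single gene's end: nearest end is the start (left), start peaks inside the gene (middle), and CTCF core in the promoter where the peak centre falls in that window (right). Red points are the weak peaks and blue points the stronger ones; the share inside the gene runs from 63.7% in the lowest step to 21.9% in the highest.

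The CTCF core was less common under weak peaks than under stronger ones. A peak centre fell within the 300-base promoter window of its gene for 203 weak peaks and 909 stronger ones. The core was found in 43 of these 203 windows (21.2%, 15.8 to 27.5), against 349 of 909 (38.4%, 35.2 to 41.6), and in 12.5% of all 21156 promoter windows of protein-coding genes on the same chromosomes (12.05 to 13.0). A stricter form, with A as the third base and so contained in the first, was in 8 of 203 (3.94%, 1.72 to 7.62), against 109 of 909 (11.99%, 9.95 to 14.3) and 2.55% of all windows. A looser form without the closing C, which contains both, was in 45.8% (38.8 to 52.9), against 57.6% (54.4 to 60.9) and 32.2% of all windows. Both strands were searched each time. The weak and stronger intervals were apart for all 3 forms.

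Where a core was found in the window, it lay farther from the weak peaks' centres. The window ends 50 bases after the start, so cores farther into the gene were not seen, here or in the shares above. The part of that cut in these differences was not tested. It was within 50 bp of the centre in 25 of 43 weak peaks (58.1%, 42.1 to 73.0), against 278 of 349 stronger ones (79.7%, 75.05 to 83.8). The median distance was 38.5 bp for weak peaks and 15.5 bp for stronger ones, given without intervals. Within the members the core was found in 12% of windows (5.64 to 21.6) at scores of 15 to under 17, 26.7% (16.1 to 39.7) at 17 to under 19 and 26.5% (16.5 to 38.6) at 19 to 21, with intervals that overlap. In the first step above the threshold it was found in 34 of 158 (21.52%, 15.4 to 28.8), so no order by score is read from these 4 steps. Over all 766 members with a promoter sequence, peaks away from the window included, the share was 14.8% (12.3 to 17.5), against 22.7% of 2782 (21.1 to 24.3).

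Promoters of the weak peaks' genes were of the CpG-rich kind. The ratio of observed to expected CpG had a median of 0.867 in the 766 promoters (0.851 to 0.880), against 0.827 in those of stronger peaks (0.817 to 0.836) and 0.743 over all windows (0.737 to 0.748). It was at least 0.6 in 677 of 766 (88.4%, 85.9 to 90.6), against 2200 of 2782 (79.1%, 77.5 to 80.6) and 62.6% of all windows. Where centres fell in the window, that share was 92.1% (87.5 to 95.4) under weak peaks and 89.3% (87.1 to 91.3) under stronger ones, with overlapping intervals. At starts with the centre outside the window, it was 89.8% of 482 (86.8 to 92.4), against 80.9% of 1251 (78.6 to 83.04). Those intervals were separate. Peaks at a finish, whose promoter lies at the gene's other end, made up 81 of the 766 and 622 of the 2782. Their shares were 70.4% and 60.5%, with overlapping intervals. The part of this mix in the difference over all peaks was not tested. GC content was alike, with medians of 67.3% in weak-peak promoters and 67.0% in those of stronger peaks. Over all windows the median GC content was lower, at 62.7% (62.3 to 62.7). The shares of the CTCF core and of other motifs over all windows were not matched for GC content. The part of GC content in their differences from the peak promoters was not tested.

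Other promoter motifs were searched on both strands in the same 766 and 2782 windows. GGGCGG, the letters read by SP1 and related factors, was in 74.3% of weak-peak promoters (71.03 to 77.3), against 69.6% (67.9 to 71.3) and 56.6% of all windows. It can overlap the CTCF core. TGACGT, the letters of cyclic AMP response elements, was in 12.7% (10.4 to 15.2), against 9.42% (8.36 to 10.6) and 8.82% of all windows. CCAAT, read by NF-Y, was in 36.3% (32.9 to 39.8), against 31.4% (29.7 to 33.1) and 34.4%. TATAAA, the core of the TATA box, was in 4.18% (2.87 to 5.85), against 6.07% (5.22 to 7.03) and 9.51%. CCGGAAG, read by ETS factors, was in 16.2% (13.6 to 18.99), against 15.6% (14.2 to 16.97) and 12.9%. The NRF1 motif was in 2.87% (1.81 to 4.32), against 1.65% (1.21 to 2.20) and 1.503%. The YY1 motif was in 2.74% (1.70 to 4.16), against 2.37% (1.84 to 3.01) and 1.67%. All 7 intervals of the weak peaks overlapped those of the stronger peaks.

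The 953 members belonged to 940 genes. Over all 19126 protein-coding genes of chromosomes 1 to 22, 4.91% had a weak peak of this single-gene kind and 17.3% a stronger one. Peaks at the ends of more than 1 gene, 186 weak ones among them, do not count in these or the list shares. The part of shared ends in a list's share was not tested. A weak and a stronger peak lay at the ends of 58 genes, at the same or at opposite ends. Gene lists are read here against those shares. Of 27 lists, 25 had an interval that held the share of weak peaks over all genes, 1 lay above it and 1 below.

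The list of translation initiation factors was the one above. It also holds genes that are not such factors themselves, among them EIF4EBP1 and EIF2AK3. The lower bound of its interval was close to the 4.91% of all genes. With 27 lists read, an interval can miss that share by counting error alone. Weak peaks lay at 7 of 53 (13.2%, 5.48 to 25.3), and stronger peaks at 9 of 53 (16.98%, 8.07 to 29.8). EIF4A2, an RNA helicase of the cap-binding complex, had 9.89 normalised tags (5.95 to 15.4) 367 bp before its start. EIF5, which helps to choose the start codon, had 10.9 (6.77 to 16.7) 340 bp before its start. EIF4EBP1, a repressor of cap-dependent translation, had 10.7 (6.77 to 16.7) 233 bp inside the gene. The others were EIF4E, the cap-binding protein, with 9.37 normalised tags, EIF5A2 with 9.63, EIF2AK3, a stress kinase, with 9.11, and EIF3D with 7.81. All of the 6 with known strand were at the start, and 3 of those lay inside the gene.

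Olfactory receptors were the list below, with a weak peak at 1 of 391 (0.256%, 0.00647 to 1.42), OR6J1, and stronger peaks at 12 (3.07%, 1.60 to 5.30). OR6J1 held 10.4 normalised tags (6.36 to 16.1). Keratin-associated proteins of hair had a weak peak at 1 of 94 (1.06%, 0.0269 to 5.79), KRTAP10-7, with 10.4 normalised tags (6.36 to 16.1). The melanocyte list had a weak peak at 0 of 23 genes, with a Clopper-Pearson upper bound of 14.8%, and stronger peaks at 2. RNA polymerase subunits had 0 of 31, with an upper bound of 11.2%, and stronger peaks at 9.

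Weak peaks at HOX genes, which pattern the body axis, numbered 5 of 39 (12.8%, 4.30 to 27.4), and stronger peaks 4 (10.3%, 2.87 to 24.2). Among them, HOXB8 held 9.89 normalised tags (5.95 to 15.4) and HOXC13 9.11 (5.55 to 14.8). HOXC9 had 9.11 and HOXD10 7.81. HOXB8 lay at the edge of detection, at 4.01-fold over the surrounding 10 kb. Neuronal genes had 3 of 21 (14.3%, 3.05 to 36.3), and the same share with stronger peaks. GRIN2B, a glutamate receptor subunit, held 8.85 normalised tags (5.16 to 14.2) on a background of 0.829. DLG4, a postsynaptic scaffold, held 10.7 (6.77 to 16.7) beyond its finish, and GRIA1, another glutamate receptor subunit, 8.33 (4.76 to 13.5).

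Respiratory chain, spliceosome, nuclear pore, RNA helicase and chaperone genes had shares above the 4.91% of all genes, with wide intervals that held it. Respiratory chain genes had 7 of 80 (8.75%, 3.59 to 17.2), among them ATP5MC3, a subunit of ATP synthase, with 10.2 normalised tags, NDUFA5 of complex I with 10.4 and ATP5PD of ATP synthase with 10.7. NDUFA5 carried its peak at the finish. Spliceosome genes had 5 of 61 (8.20%, 2.72 to 18.1), with PRPF38B at 9.63 normalised tags, SNRNP70, the U1 protein, at 9.37 and SRSF6 at 8.33. Nuclear pore genes had 3 of 29 (10.3%, 2.19 to 27.4), namely NUP50 with 9.11, RANBP2 with 9.11 and NUP93 with 7.29 normalised tags. RNA helicases had 4 of 51 (7.84%), led by DHX15 at 10.7, with DDX11 at 8.07 and DDX42 at 8.33. Chaperones had 5 of 82 (6.10%), among them DNAJC1 at 8.33, DNAJC3 at 8.85 and HSPA5, the chaperone BiP of the endoplasmic reticulum, at 8.33.

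Cytosolic ribosomal proteins had weak peaks at 2 of 82 genes (2.44%, 0.297 to 8.53) and stronger peaks at 21 (25.6%, 16.6 to 36.4). The 2 were RPL10L, a testis form of RPL10, with 9.63 normalised tags, and RPS27L, a p53-induced gene, with 8.85. Mitochondrial ribosomal proteins had 4 of 76 (5.26%), with MRPS28 at 10.4, MRPL1 at 9.11 and MRPS7 at 8.07. Proteasome genes had 2 of 47 (4.26%), PSMD8 at 10.2 and PSME3 at 8.33. Aminoacyl-tRNA synthetases, which charge transfer RNAs, had 2 of 37 (5.41%), SARS2 at 9.37 and NARS2 at 8.07. Mediator, the coactivator of RNA polymerase II, had 1 of 29 (3.45%), MED24 at 9.63. Vesicle traffic genes had 8 of 144 (5.56%), led by SNX9 at 10.9, RAB40C at 10.4 and SNX25 at 10.7, and stronger peaks at 44 (30.6%, 23.2 to 38.8). Ubiquitin conjugating enzymes had 2 of 34 (5.88%), UBE2H at 8.07 and UBE2Q2 at 7.55.

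Genes of chromosome biology gave similar counts. Mitotic genes had 2 of 48 (4.17%, 0.509 to 14.3), CCNB2, which encodes cyclin B2, with 8.59 normalised tags, and CENPF, a kinetochore protein gene, with 8.33. DNA replication genes had 3 of 47 (6.38%), MCM6 of the replicative helicase at 10.4, and the clamp loader genes RFC2 at 9.11 and RFC4 at 7.29. DNA repair genes had 3 of 52 (5.77%), among them FANCC at 9.89 and FANCD2 at 7.81. CTCF and cohesin genes had 2 of 17 (11.8%, 1.46 to 36.4), RAD21, the kleisin subunit of cohesin, at 9.63 and WAPL, which releases cohesin, at 7.81, against stronger peaks at 8 of 17 (47.1%, 22.98 to 72.2). Histone genes had 3 of 69 (4.35%), H1-2 at 8.33, H3C10 at 8.33 and H4C5 at 7.55. Because H1-2, H3C10 and H4C5 are shorter than the 1 kb window and have near-identical copies, their values and ends are uncertain.

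The remaining lists were large families and collagens. Numbered zinc finger genes had weak peaks at 32 of 505 (6.34%, 4.37 to 8.83) and stronger ones at 72 (14.3%, 11.3 to 17.6). Highest in score were ZNF23 with 10.4 normalised tags, ZNF330 with 10.7 and ZNF148 with 10.2. Solute carriers had 13 of 333 (3.90%, 2.09 to 6.58), led by SLC16A12 at 10.7, SLC44A1 at 9.63 and SLC17A5, the lysosomal sialic acid exporter, at 10.2. Collagens had 2 of 42 (4.76%), COL23A1 at 10.2 and COL26A1 at 7.81.

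**Figure D4:**
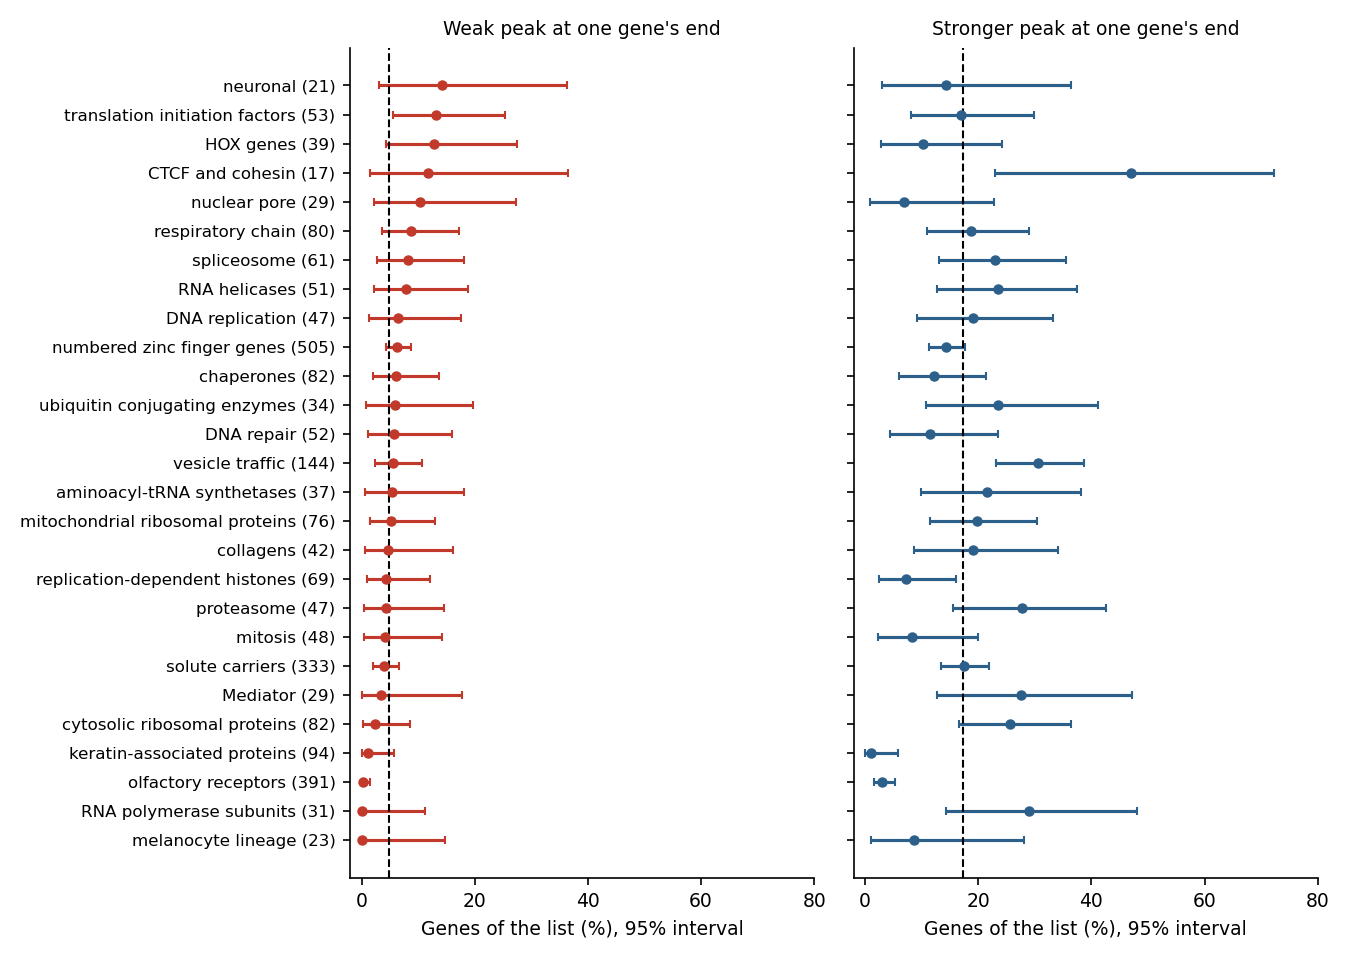
Share of each list's genes (%, with Clopper-Pearson 95% interval; number of genes in brackets) with a weak peak (left) or a stronger peak (right) at a single gene's end, beside the share over all 19126 genes (dashed line, 4.91% left and 17.3% right). For weak peaks the interval of translation initiation factors lies above the line and that of olfactory receptors below it.

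A few genes carried more than 1 weak peak. There were 13 genes with a pair and 0 with 3 or more. USP12, a deubiquitinase gene, had 10.9 normalised tags (6.77 to 16.7) 343 bp before the start and 9.11 (5.55 to 14.8) 444 bp inside. ITGB8, an integrin gene, had 9.11 (5.55 to 14.8) 142 bp inside and 9.63 (5.55 to 14.8) 987 bp inside. LYPD6 and WWC2 also had a peak on each side of the start, and AMER3 one on each side of the finish. RNF6, MKNK1 and CNTLN had 1 peak at each end of the gene. MKNK1 encodes a kinase of the cap-binding protein EIF4E, and CNTLN a centrosomal protein. The finish peak of RNF6, a ubiquitin ligase gene, had a focus ratio of 0.955 and 10.4 normalised tags (6.36 to 16.1), and its start peak a focus ratio of 0.738 and 8.33 (4.76 to 13.5).

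Noncoding genes often shared the weak peaks' positions. The end of a noncoding gene lay within 1 kb of 237 of 953 members (24.9%, 22.2 to 27.7), against 674 of 3470 stronger peaks (19.4%, 18.1 to 20.8) and 470 of 6974 weak peaks away from protein-coding ends (6.74%, 6.16 to 7.35). A long noncoding RNA was the nearest such gene for 215 members, at a median of 279 bp from the peak centre. Divergent transcripts were among them, as at NUP50, where the NUP50-DT end lay 127 bp from the centre, and at WAPL, where the WAPL-DT end lay 241 bp away. Both peak centres lay outside the coding gene.

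Neighbouring peaks were common. Another peak lay within 20 kb of 513 of 953 members (53.8%, 50.6 to 57.0), against 62.5% of stronger peaks at a single gene's end (60.8 to 64.1) and 46.3% of weak peaks away from ends (45.1 to 47.5). A higher-scoring peak lay that close to 49.9% of members (46.7 to 53.2), against 42.0% of weak peaks away from ends (40.8 to 43.1).

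By chromosome, the members made up 15.6% of peaks at a single gene's end on chromosome 17 (11.4 to 20.5) and 30.1% on chromosome 13 (19.9 to 42.0), the extremes, against 21.55% over chromosomes 1 to 22 (20.3 to 22.8). The intervals of these extremes overlap. Chromosome 19 had 17.3% (13.03 to 22.4). Among all peaks, wherever they lay, weak ones made up 15.4% on chromosome 17, 15.1% on 19 and 24.4% on 13. Over chromosomes 1 to 22 that share was 19.6%. Low shares on 17 and 19 and a high one on 13 were thus not particular to the members. The median local background of all peaks was 1.71 on chromosome 17, 1.74 on chromosome 19 and 1.42 on chromosome 13, and its part in these shares was not tested.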

How the data were processed

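CTCF ChIP-seq of MDA-MB-435 cells was analysed from 1 deposited peak list, that of asynchronous replicate 1. The submitters' processing notes name Bowtie2, HOMER and hg38 without tool versions. Per the file headers, findPeaks was run for factors, and the command names no control. It counted 1 tag per base pair at most and set its tag threshold to 15 for a false discovery rate of 0.001. Per the file headers, a peak also needed a 4-fold excess over its 10 kb and a local p-value of 1e-04; deposited p-values were not used further. Without a control library, extra DNA copies and repeats can be called as peaks.

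The deposited tag signal is scaled by the authors' caller to 10000000 tags, and depth was 19210460 tags. The deposited score, the focus ratio (a fraction) and the fold and clonal ratio are the authors' caller's own values, and serve here only for description and ranking inside the list.

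Gene ends came from a RefSeq table of GRCh38.p14, with strand from RefSeq promoter sequences. Those matched 80.4% of members and 80.2% of stronger peaks. Chromosome 8 and other genes without an entry were not analysed for strand or sequence. For sequences, a gene with several starts was given the one nearest the peak centre. End type, side and distance to an end used the gene's outermost annotated ends. Shares have Clopper-Pearson 95% intervals, tag counts exact Poisson ones, and medians intervals from binomial order statistics. No test was made, with 1 library. The members and gene lists were chosen with earlier results of these data known. Named genes were the members nearest an end, of highest fold, of highest or lowest background, next to the threshold or with a pair of peaks, up to 3 per list by score, and the promoters nearest a core or a start. EIF4E, EIF5A2, EIF2AK3, EIF3D, HOXC9 and HOXD10 were added after their values were seen, to describe their lists more fully. Some genes that the rule names are not reported here. Alternatives varied threshold, window, gene set, merging and motif. Counting was checked on simulated peaks. Scripts ran on Python 3.11.15 with scipy 1.17.1, pandas 2.3.3, numpy 2.4.6 and, for figures, matplotlib 3.10.9.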

Additional observations from a re-analysis of the deposited data

Results flagged for a closer look

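Weak peaks at a single gene's end were also found on chromosome X, which lies outside the rule. There were 21 there, above the 3 that a count of 0 allows, out of 86 peaks at a single gene's end (24.4%, 15.8 to 34.9). Their median height was 9.11 normalised tags and their median local background 0.819, against 8.85 and 1.61 in the members.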

How the results depend on the processing

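Of 45 recomputed values, 30 stayed within the interval of the reported value (within 1.5 times, for the count), and 15 moved. A score under 15 left no peak, so it gave no value. The count of 953 became 1610 with scores under 30 and 511 with scores under 18. The share within 250 bp of an end became 66.4% with a window of 500 bp, 40.3% with 2 kb and 45.7% with all annotated genes. The share at starts became 91.9%, 83.9% and 81.8% under the same 3 settings. The share of promoters with the CTCF core became 2.09% with the stricter motif, 37.6% with the looser one, 21.2% with the centre inside the window and 11.7% with scores under 18. The median local background became 1.64 with scores under 30, 1.51 with all annotated genes and 1.57 with scores under 18. Windows and scores change which peaks are members by construction. The limit of 18 and a restriction to genes over 2 kb were chosen after seeing the data, and the latter moved none of the 6 values. At a median of 17 tags per member, differences in height among members were not detectable. No paired analysis was possible because only 1 library was analysed.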

Other observations

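Longer genes more often carried a weak peak that met the single-gene rule. Of the 3825 shortest protein-coding genes, up to 6.66 kb, 2.35% had one (1.90 to 2.88). The share was 4.26%, 5.02% and 5.46% in the next 3 groups of 3825 genes by length, and 7.48% (6.66 to 8.35) in the 3826 longest, from 84.0 kb on. Stronger peaks showed the same order, with 13.2% (12.2 to 14.3) of the shortest group and 21.0% (19.7 to 22.3) of the longest. The median member lay at a gene of 41.3 kb (35.3 to 46.9), against 30.003 kb for stronger peaks (28.4 to 31.8) and 24.5 kb over all 19126 genes.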
